A study of Mus musculus with 3 samples.

Results

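The clustered protocadherins are cadherin-like adhesion proteins encoded by 3 neighbouring gene clusters, alpha, beta and gamma, on mouse chromosome 18. Their transcripts were taken as every non-control probe whose gene name in the array files begins with Pcdha, Pcdhb or Pcdhg. This gave 38 probes of 35 genes out of 39429 probes of 30175 gene names on the array, with 9 probes of 7 genes in the alpha cluster, 22 probes of 22 genes in the beta cluster and 7 probes of 6 genes in the gamma cluster. The samples were embryoid bodies, clumps that mouse embryonic stem cells form in suspension and in which they differentiate when the cytokine LIF is absent, collected at day 10. Wild-type embryoid bodies were compared with embryoid bodies of genotype Dido3deltaCT+HADido3CT, called mutant+CT here. In these cells the Dido3 protein, the longest product of Dido1, is truncated at its C terminus, and the lost C-terminal piece, encoded by exon 16, is supplied by overexpression. The labels do not name the promoter of that construct or the number of clones, and no sample here carried the truncation or the construct alone, so their effects cannot be told apart. There were 3 biological replicates of each genotype, and each of 3 arrays held 1 wild-type and 1 mutant+CT RNA. Wild type carried the red dye Cy5 on replicates 1 and 3 and the green dye Cy3 on replicate 2. The number of arrays limits the precision.

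In the alpha and gamma clusters, each variable exon has its own promoter and is spliced to constant exons shared by the whole cluster, whereas each beta gene is a single exon. Neurons switch on a few of these promoters largely at random, under CTCF and cohesin acting on distant enhancers and under DNA methylation, while the C-type isoforms at the ends of the alpha and gamma clusters are expressed more uniformly. The proteins pair with identical partners on other cell surfaces, and through this homophilic recognition a neuron tells its own branches from those of other neurons. Embryonic stem cells express them weakly, and expression is best known from the nervous system.

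Because of this gene structure, the probes fall into those of single isoforms and those of shared sequence. By the files' mm9 coordinates, the alpha probes lay between 37114742 and 37347294, the beta probes between 37427011 and 37680728, and the gamma probes between 37823813 and 38001437 on chromosome 18, 887 kb in all. The beta cluster was fully represented, with a probe named for each of the 22 Pcdhb genes in the RefSeq annotation of the mouse. The alpha cluster had a probe named for 7 of 14 genes and the gamma cluster for 6 of 22, and Pcdhgc3 and Pcdhgc4 had none. The last alpha probe, A_55_P1963533 (37347235 to 37347294), is named Pcdhac2, but the files also assign it to transcripts of Pcdha9, Pcdha4 and Pcdhac1, so it reads more than 1 isoform. Both Pcdhga9 probes, A_52_P667913 (37999725 to 37999784) and A_55_P1961863 (38001378 to 38001437), lie past the Pcdhgc5 probe at the end of the cluster. The former is assigned to Pcdhga9, Pcdhga5, Pcdhga6 and the read-through gene Gm37013, and the latter to Pcdhga9, Pcdhga5, Pcdhga6 and Pcdhga1. Pcdha8 probe A_55_P2106584 is likewise assigned to Pcdha8, Pcdha7, Pcdha4 and Gm37013. All member probes were 60 bases long, and the closest match of a beta probe to any other member probe, aligned without gaps over at least 40 bases, was 50% identical in the median (46.7% to 56.5%).

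Across the array, between 67.3% and 77.8% of probes were well above background in a sample, as marked in the files. The ratios to wild type, taken as log2 throughout, correlated at 0.56 between replicates 1 and 3, 0.37 between replicates 2 and 3 and 0.21 between replicates 1 and 2 over the 26698 probes kept by the filter on dim probes. Those are the probes well above background in all 3 wild-type or all 3 mutant+CT samples. Dido1 was read by 4 probes that went in both directions, from −2.39 ± 1.29 to 3.53 ± 0.12 (mean ± SD, n = 3), and the latter passed the test (limma, Benjamini-Hochberg adjusted p = 0.0447). The files do not say which of them fall within the deleted or the overexpressed piece.

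Most protocadherin probes were dim. The filter kept 14 of 38 (36.8%), against 67.7% of all probes, and these were 2 of 9 alpha, 7 of 22 beta and 5 of 7 gamma probes. Pcdha4, Pcdhb19, Pcdhga10 and 1 of the Pcdha8 probes were well above background in no sample. For such probes the ratios cannot show a difference at this signal, which is not a measure of absence.

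As a share of probes, detection varied most between wild-type samples in the beta cluster and between mutant+CT samples in the alpha cluster. In wild type, 16, 6 and 20 of the 22 beta probes were well above background on replicates 1, 2 and 3. In mutant+CT the beta counts were 12, 5 and 5. The widest gap between genotypes was on replicate 3, where 20 beta probes were detected in wild type and 5 in mutant+CT. Over all 3 arrays, 16 beta probes were detected in more wild-type than mutant+CT samples and 2 in more mutant+CT samples. The alpha cluster had 3, 3 and 5 of 9 probes detected in wild type and 2, 7 and 1 in mutant+CT, so replicate 2 ran the other way. The gamma cluster had 4, 5 and 6 of 7 detected in wild type and 4, 6 and 5 in mutant+CT. Detection of all probes moved with the dye as well, being 73.5%, 67.3% and 75.5% in wild type and 68.2%, 77.8% and 73.2% in mutant+CT, and on each array the lower value was in Cy3. The part of the dye in the protocadherin counts was not tested.

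**Figure D1:**
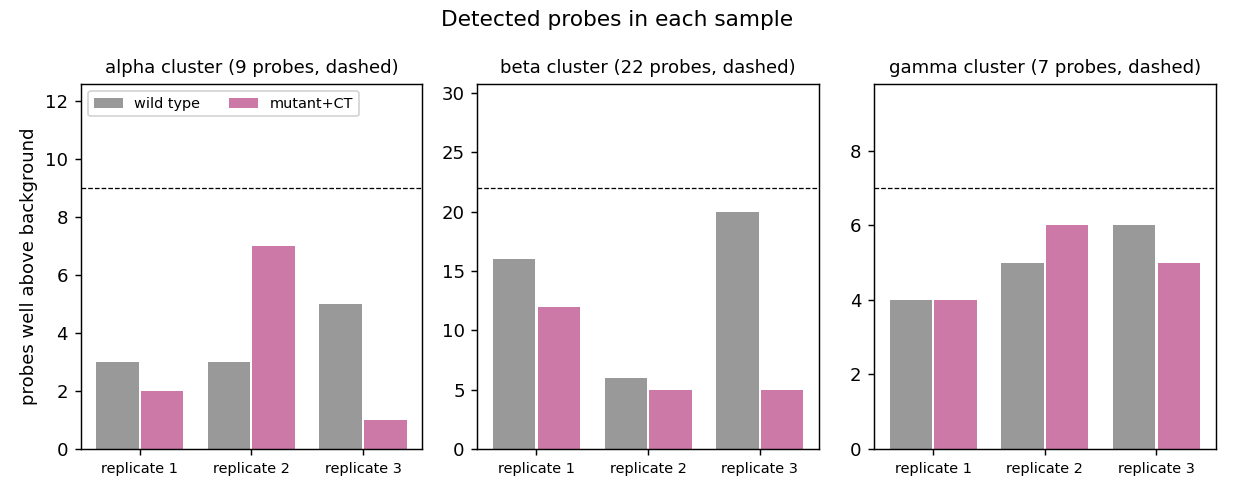
Number of probes well above background (y axis) in each wild-type (grey) and mutant+CT (pink) sample by replicate, for the alpha, beta and gamma clusters; dashed lines mark the number of probes of the cluster. In the beta cluster 20 of 22 probes were detected in wild type of replicate 3 and 5 of 22 in mutant+CT of that replicate.

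No clustered protocadherin passed the test for a difference between mutant+CT and wild type. Of the 14 kept probes, 0 had an adjusted p under 0.05 in limma's moderated test, where 36 of 26697 kept probes did (0.135%). The smallest adjusted p of a member was 0.282. At an unadjusted p under 0.05 there were 2 members, against 16.4% of kept probes. No member was at least 2-fold higher or lower on every array, against 2.01% of kept probes higher and 0.97% lower.

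The direction of the members was one-sided and came mainly from replicate 3. On that array 37 of 38 probes had a log2 ratio below 0, where 49.7% of all probes did, and 13 of 38 were at least 2-fold lower in mutant+CT, against 7.04%. Those 13 were 1 alpha, 10 beta and 2 gamma probes. As 5 of 22 beta probes were well above background in mutant+CT of replicate 3, most beta ratios of that array are limited by the background. On replicate 1 no member was at least 2-fold lower (3.3% of all probes) and 24 were below 0 (48.8%), and on replicate 2, 1 was at least 2-fold lower (5.54%) and 28 were below 0 (50.2%). Counting probes lower on every array gave 16 of 38, against 15.8% of all probes, and none was higher on every array, against 17.3%. The counts out of 38 include dim members, among them those well above background in no sample. Among kept probes alone, 5 of 14 members were lower on every array, against 4761 of 26698 kept probes. The members share samples and, in part, transcripts, so these probes are not independent of each other.

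**Figure D2:**
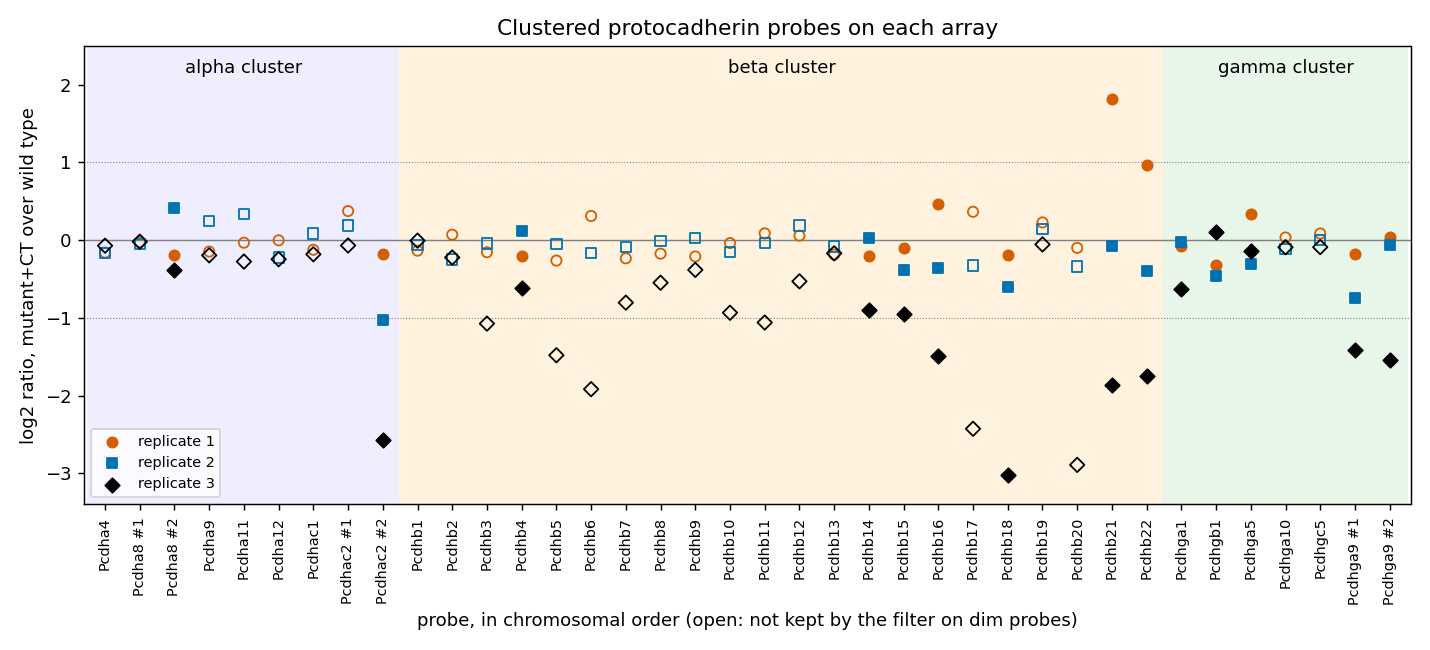
Log2 ratio of mutant+CT over wild type (y axis) for each of the 38 probes in chromosomal order (x axis), with 1 symbol per replicate; filled symbols are probes kept by the filter on dim probes and open ones are not, and dotted lines mark 2-fold. Replicate 3 lies below 0 for 37 of 38 probes and is lowest in the beta cluster, at the last alpha probe and at both Pcdhga9 probes.

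The size of this shift was read for each cluster. The median log2 ratio over the 22 beta probes was −0.10, −0.08 and −0.94 on replicates 1, 2 and 3. The alpha medians were −0.12, 0.09 and −0.19 and the gamma medians 0.03, −0.11 and −0.13. All probes had medians of 0.01, 0.00 and 0.00. The medians of the probes' mean ratios were −0.37 for beta, −0.05 for alpha and −0.23 for gamma, and without replicate 3 the beta median was −0.09 and the gamma median −0.04. The order of the clusters depended on which probes were read. Over the kept members alone the medians were −0.66 for alpha, −0.40 for beta and −0.25 for gamma. Over the probes well above background in all 6 samples, 1 alpha, 1 beta and 3 gamma probes, they were −1.26, −0.23 and −0.52. The difference between clusters was not tested. In the levels themselves, the median normalised log2 intensity of the beta probes in wild type was 6.67, 6.35 and 7.19, and in mutant+CT it was 6.54, 6.17 and 6.14. Wild type of replicate 3 stood highest, and the mutant+CT samples of replicates 2 and 3 were nearly level. In each of those mutant+CT samples 5 of 22 beta probes were well above background. Their medians are therefore limited by the background and do not show equal expression.

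Among the beta genes, Pcdhb18 had the smallest p of the kept probes. Its normalised log2 intensity was 8.37, 6.87 and 9.39 in wild type and 8.17, 6.26 and 6.37 in mutant+CT on replicates 1, 2 and 3. The groups overlapped, because wild type of replicate 2 lay below mutant+CT of replicate 1. The log2 ratios were −0.20, −0.61 and −3.03, with a mean of −1.28 ± 1.53 (SD, n = 3) and an adjusted p of 0.362 in limma.

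Pcdhb15 was the beta gene with the least spread between arrays among the 3 kept beta probes of smallest p. Wild type measured 6.63, 6.55 and 7.38 and mutant+CT 6.53, 6.16 and 6.43 in normalised log2 intensity, and every wild-type sample lay above every mutant+CT sample. It was well above background in all 3 wild-type samples and in no mutant+CT sample, so its ratios are limited by the background. The log2 ratios were −0.10, −0.39 and −0.95, a mean of −0.48 ± 0.43 (SD, n = 3), with an adjusted p of 0.442 in limma. That mean stands for wild type 1.39-fold higher, and replicates 1 and 2 gave less.

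Pcdhb14 measured 6.86, 6.47 and 7.49 in wild type and 6.66, 6.51 and 6.59 in mutant+CT. The groups overlapped and the 3 ratios, −0.20, 0.03 and −0.90, did not share a sign (adjusted p = 0.596 in limma). Pcdhb4, kept through all 6 samples, had ratios of −0.20, 0.11 and −0.62 (adjusted p = 0.723 in limma).

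The 10 beta probes at least 2-fold lower on replicate 3 were singled out after their values were seen. They are Pcdhb3, Pcdhb5, Pcdhb6, Pcdhb11, Pcdhb16, Pcdhb17, Pcdhb18, Pcdhb20, Pcdhb21 and Pcdhb22, of which those from Pcdhb16 on lie together at the gamma end of the cluster, with Pcdhb19 between them. Pcdhb20 had ratios of −0.10, −0.34 and −2.89 and Pcdhb17 of 0.37, −0.33 and −2.43. Pcdhb6 had 0.31, −0.16 and −1.92 and Pcdhb5 had −0.26, −0.05 and −1.48. Each of these was detected in 2 wild-type samples and 1 mutant+CT sample. Pcdhb3 (−1.07 on replicate 3, the mean of 10 spots) and Pcdhb11 (−1.06) were detected in 1 wild-type sample and no mutant+CT sample. The neighbouring Pcdhb19, never above background, had ratios of 0.23, 0.14 and −0.05.

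Of the 10 beta genes at least 2-fold lower on replicate 3, Pcdhb6, Pcdhb11, Pcdhb16, Pcdhb17, Pcdhb21 and Pcdhb22 had ratios above 0 on replicate 1, while Pcdhb3, Pcdhb5, Pcdhb18 and Pcdhb20 were below 0 on both arrays. Pcdhb21 measured 7.38 in wild type and 9.19 in mutant+CT on replicate 1, and 8.36 and 6.49 on replicate 3, with 6.37 and 6.29 on replicate 2. Its ratios were thus 1.81, −0.07 and −1.86, and it was the only member at least 2-fold higher on any array (6.3% of all probes were so on replicate 1). No member was at least 2-fold higher on replicate 2 (4.25% of all probes) or on replicate 3 (9.39%). Pcdhb22 had ratios of 0.96, −0.40 and −1.75 and Pcdhb16 of 0.46, −0.36 and −1.49. The means of Pcdhb21, Pcdhb22 and Pcdhb16, −0.04 ± 1.84, −0.40 ± 1.36 and −0.46 ± 0.98 (SD, n = 3), were all smaller than their spread. Their means turn positive without replicate 3, to 0.87, 0.28 and 0.05.

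Over the 22 beta probes, which share arrays and dyes, the replicate 3 ratio was lower toward the gamma cluster (Spearman's rho with position = −0.47), as was the replicate 2 ratio (rho = −0.35), and the replicate 1 ratio was higher (rho = 0.47). The replicate 3 ratio, which contains the wild-type intensity of that array, followed this intensity more closely (rho = −0.96). That intensity itself rose toward the gamma cluster (rho = 0.45). As most beta probes were near background in mutant+CT of replicate 3, the relation with position is no measure of a graded difference. The part of wild-type brightness in it was not tested. These relations were looked for after the values were seen.

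Replicates 1 and 3 carried the same genotype in the same dye, so their samples can be set side by side. Wild type of replicate 3 exceeded wild type of replicate 1 by 0.55 on the log2 scale in the median of the beta probes, and 3 of 22 were at least 2-fold higher (3.77% of all probes). Mutant+CT of replicate 3 lay below mutant+CT of replicate 1 by a median of −0.23, and 7 of 22 were at least 2-fold lower (7.21% of all probes). Against replicate 2, in the other dye, mutant+CT of replicate 3 was nearly level in its beta median, but both medians are limited by the background, as given above.

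**Figure D3:**
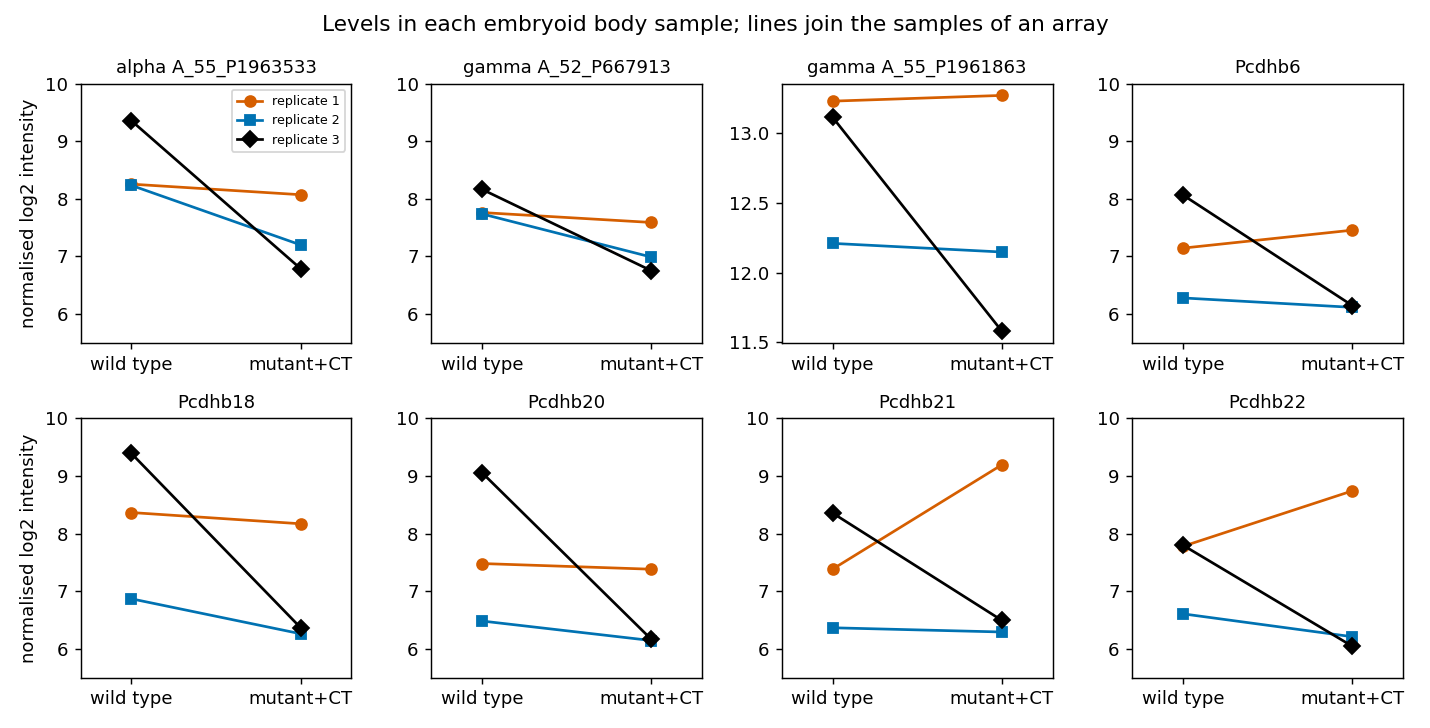
Normalised log2 intensity (y axis) in wild type and mutant+CT for 8 probes, with lines joining the 2 samples of an array; the panels share a scale except that of the gamma probe A_55_P1961863, and the beta panels other than Pcdhb18 were chosen after their values were seen. The replicate 3 line runs down in every panel, while the replicate 1 line runs up for Pcdhb6, Pcdhb21 and Pcdhb22, and slightly for A_55_P1961863.

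Of the alpha probes that the files assign to several isoforms, the last one, A_55_P1963533, was the member with the smallest p. It measured 8.26, 8.23 and 9.36 in wild type and 8.07, 7.20 and 6.79 in mutant+CT, with all wild-type samples above all mutant+CT samples. The log2 ratios were −0.18, −1.03 and −2.57, a mean of −1.26 ± 1.21 (SD, n = 3), with an unadjusted p of 0.042 and an adjusted p of 0.282 in limma. It was well above background in all 6 samples, and it alone gave a member 2-fold lower on replicate 2.

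The other alpha probes were not of this size. Pcdha8 probe A_55_P2106584, also assigned to several isoforms, measured 6.72, 7.01 and 6.73 in wild type and 6.54, 7.43 and 6.35 in mutant+CT, with ratios of −0.19, 0.42 and −0.38 (adjusted p = 0.955 in limma). Probe A_55_P2106584 lies at 37154205 to 37154264, beside the other Pcdha8 probe and far from A_55_P1963533 at 37347235 to 37347294. These alpha probes thus need not read the same shared sequence. The second Pcdhac2 probe, A_55_P2471752, had ratios of 0.37, 0.19 and −0.07 and was detected in 1 mutant+CT sample only. Pcdhac1, the other C-type alpha isoform, had −0.12, 0.09 and −0.18. Both probes named Pcdha8 and those of Pcdha4, Pcdha9, Pcdha11 and Pcdha12 had means between −0.16 and 0.01.

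In the gamma cluster the pair of shared probes had the lowest means. A_52_P667913 measured 7.76, 7.74 and 8.17 in wild type and 7.59, 6.99 and 6.75 in mutant+CT, with no overlap between the groups. Its log2 ratios were −0.17, −0.75 and −1.41, a mean of −0.78 ± 0.62 (SD, n = 3), with an unadjusted p of 0.047 and an adjusted p of 0.299 in limma.

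The other shared gamma probe, A_55_P1961863, measured 13.23, 12.21 and 13.12 in wild type and 13.27, 12.15 and 11.58 in mutant+CT. The groups overlapped, and the difference was on replicate 3. The ratios were 0.04, −0.06 and −1.54, a mean of −0.52 ± 0.88 (SD, n = 3; adjusted p = 0.575 in limma). The probes thus disagree on replicate 2, although the files assign both to Pcdhga9, Pcdhga5 and Pcdhga6.

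Probes of single gamma isoforms differed less. Pcdhga1 had ratios of −0.08, −0.03 and −0.63 (adjusted p = 0.695 in limma), Pcdhga5 of 0.34, −0.31 and −0.13 (0.969) and Pcdhgb1 of −0.32, −0.46 and 0.10 (0.718). Pcdhgb1 was the 1 member above 0 on replicate 3. Pcdhgc5, the C-type isoform with a probe, had 0.09, 0.00 and −0.09 and was detected in 1 sample of each genotype.

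Wild type lay wholly above mutant+CT for 4 of 38 members, against 5.53% of all probes. These were the alpha probe A_55_P1963533, the gamma probe A_52_P667913, Pcdhb15 and Pcdhb10. Pcdhb10 was detected in 2 wild-type samples and no mutant+CT sample, with ratios of −0.04, −0.15 and −0.93. For no member did mutant+CT lie wholly above wild type, against 7.38% of all probes.

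With Agilent's processed signals, which subtract background more strongly than the processing used above, the same direction was larger. The beta medians were −0.22, −0.87 and −3.47 on replicates 1, 2 and 3, and 21 of 22 beta probes were at least 2-fold lower on replicate 3, against 15.8% of all probes. On replicate 2 there were 8 of 22 (12.8% of all probes) and on replicate 1 none (12.6%). The alpha medians were −0.09, 0.80 and −0.74 and the gamma medians −0.40, −0.65 and −1.08. No member passed the test in limma on these signals either. The size of the beta shift thus differed between these ways of processing, and its median was lowest on replicate 3 under both. The processed signals also skip the loess step and the offset, so the part of background in this was not isolated. With no background subtraction the median of the beta probes' mean ratios was −0.35, against −0.37 in the main processing.

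Non-clustered protocadherins, single genes outside these clusters, were read as a list called delta here. It also holds Pcdh12 and Pcdh15, which are not usually counted in the delta family. Its medians were 0.05, −0.02 and −0.33 over 26 probes of 12 genes. No Pcdh15 probe was kept by the filter, and these dim probes count in the medians. None of the 8 kept probes of the list passed the test. Pcdh8, a protocadherin of paraxial mesoderm and neurons, was at least 2-fold lower on every array, with ratios of −1.51, −1.80 and −2.87 (−2.06 ± 0.71, SD, n = 3; adjusted p = 0.0778 in limma), so unlike the clustered genes it did not rest on replicate 3. Pcdh19 had −0.71, −0.31 and −2.25 (adjusted p = 0.291 in limma). Pcdh18 had 1.54, −2.24 and −3.53, and Pcdh1, the kept probe with the smallest p among those higher, had 0.17 ± 0.17 (SD, n = 3; adjusted p = 0.783 in limma).

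Genes that act on protocadherin promoters were then read, as 29 probes of 21 genes of CTCF, cohesin and its loaders, DNA methyltransferases and silencing factors. Of the 28 kept, 1 passed the test. Rest, the repressor of neuronal genes, was higher by 3.32 ± 0.44 at probe A_55_P2143306 (SD, n = 3; adjusted p = 0.0447 in limma). Over 13 other ways of processing, the adjusted p of that probe ran from 0.0166 to 0.117 and was under 0.05 in 8. The call was lost without replicate 2 (0.115) or 3 (0.116), with no filter on dim probes, with a dye term and with no background subtraction. Its second probe, A_51_P348456, had 0.29 ± 0.29 (adjusted p = 0.627 in limma), so the probes of Rest disagree. The second probe was dim, with mean log2 intensities of 6.61 in wild type and 6.90 in mutant+CT. Probe A_55_P2143306 had 10.04 and 13.35.

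Smchd1, a chromatin protein that silences the inactive X chromosome and the clustered protocadherins, also had probes that disagreed. Probe A_66_P116804 had ratios of 2.06, 2.33 and 1.73 (adjusted p = 0.0532 in limma), and probe A_51_P468599 had 0.22, 0.14 and −0.26 (0.966). Unlike for Rest, the probe near 0 was the brighter one. Its mean log2 intensities were 12.57 in wild type and 12.60 in mutant+CT, against 7.48 and 9.52 for A_66_P116804. Ctcf itself had 0.12, −0.62 and −0.33 (adjusted p = 0.661 in limma). Dnmt3b, the methyltransferase that marks these promoters in early development, had means of 1.65, 0.99 and 0.26 at its 3 probes (adjusted p of 0.125, 0.149 and 0.671 in limma). Wiz, a CTCF-associated zinc finger protein, was the kept probe with the smallest p among those lower, at −0.67 ± 0.44 (SD, n = 3; adjusted p = 0.302 in limma).

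Of 29 probes of 19 genes for signalling and binding partners, such as the WAVE complex, the kinases Ptk2 and Ptk2b that bind protocadherin tails, and the proteases that cleave them, none of the 27 kept passed the test. Wasf2, a WAVE subunit, was at least 2-fold higher on every array at probe A_52_P597860 (1.89 ± 0.67, SD, n = 3; adjusted p = 0.0824 in limma), while its other 2 probes had 0.51 and −0.02. Adam10, the protease that sheds protocadherin ectodomains, had −1.12 ± 0.42 (SD, n = 3; adjusted p = 0.136 in limma). Classical cadherins, 30 probes of 19 genes, also had none called among 17 kept. Cdh22 had the smallest p among those lower (−2.13 ± 1.13, SD, n = 3; adjusted p = 0.12 in limma) and Cdh3 among those higher (1.21 ± 0.51; 0.134). Cdh2, N-cadherin of neural tissue, was at least 2-fold lower on every array at probe A_55_P2000133 (mean of −2.49, adjusted p = 0.195 in limma). Its other probe, A_55_P2029711, had −0.02, −1.28 and −3.35 (adjusted p = 0.315 in limma).

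Neural progenitor and neuron markers had their lowest medians on replicate 3, which was not particular to them and the beta genes. The alpha and gamma clusters, the delta list, the classical cadherins, the regulators and the oligodendrocyte lineage markers did so too. The signalling, astrocyte and mesenchyme lists did not. The 9 neural progenitor probes had medians of −1.78, −1.61 and −3.00 on replicates 1, 2 and 3, and 5 of 9 were at least 2-fold lower on every array, against 0.657% of all probes. None of the 8 kept passed the test, and Hes5 (−3.92 ± 1.49), Sox3 (−2.19 ± 0.71), Pax6 (−3.19 ± 1.35), Sox1 (−3.11 ± 1.37) and Fabp7 (−4.24 ± 2.02; each SD, n = 3) had adjusted p between 0.0695 and 0.0888 in limma. Sox2 had −0.51, 0.26 and 0.73. The summed normalised intensity of the 8 kept probes was 30002, 5053 and 40655 in wild type and 9355, 3636 and 9674 in mutant+CT. Wild type of replicate 2 thus lay below 2 mutant+CT samples. Sox2 weighs heavily in these sums, with the highest mean log2 intensity of the list, 11.96 in wild type and 12.12 in mutant+CT. The overlap therefore does not speak for each gene of the list.

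The 17 neuron marker probes had medians of −0.69, −0.30 and −1.01, and 0 of 16 kept passed the test. Their summed intensity was 14896, 8355 and 32023 in wild type and 11349, 7097 and 11809 in mutant+CT. Dcx, the microtubule protein of migrating neurons, was at least 2-fold lower on every array at probe A_52_P244349 (−3.07 ± 2.12, SD, n = 3; adjusted p = 0.156 in limma), while its other kept probe, A_55_P2080126, had −0.29, −0.15 and −0.36 (0.616). The smallest p among those lower was that of Stmn3 (−2.27 ± 1.32, SD, n = 3; adjusted p = 0.131 in limma) and among those higher that of Elavl3 (1.17 ± 0.30; 0.11). Wild type of replicate 3 had the highest sum for both neural lists, as it had the highest beta median, and wild type of replicate 2 had the lowest wild-type value in all 3. Among wild-type samples, that of replicate 3 was also highest in the alpha and gamma medians and in the mesenchyme sum given below. Over 3 such samples no correlation was computed. In whole embryoid bodies, fewer cells of a type and less RNA per cell cannot be told apart, and the part of neural cell content in the protocadherin ratios was not tested.

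The glial lists were smaller. Astrocyte markers (7 probes) had medians of −0.19, 0.01 and 0.06, with summed intensities of 1513 to 2431 in wild type and 1408 to 2084 in mutant+CT over 4 kept probes. Slc1a3 had −0.93 ± 0.54 and Aldh1l1 0.89 ± 1.02 (SD, n = 3; adjusted p of 0.209 and 0.376 in limma). Oligodendrocyte lineage markers (4 probes) had medians of −0.66, −0.36 and −1.10. Their summed intensities were 4410 to 8081 in wild type and 1662 to 3683 in mutant+CT over 3 kept probes. These sums rest mainly on Pdgfra, whose mean log2 intensity in wild type was 12.32, against 7.91 for Olig2 and 7.43 for Sox10. Pdgfra had a log2 ratio of −1.06 ± 0.54 (SD, n = 3; adjusted p = 0.169 in limma). None of either list passed the test.

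The mesenchyme list was added after the data were seen, since Pcdhb21 and Pcdhb22 were high in mutant+CT of replicate 1 alone. Its 13 probes had medians of 3.30, −1.41 and −0.51, with 12 of 13 at least 2-fold higher on replicate 1. Their summed intensity was 266961 in mutant+CT of replicate 1, 5580 and 20336 in the other mutant+CT samples and 16043 to 30657 in wild type. The delta protocadherins Pcdh17 (2.63, 0.01 and −0.35) and Pcdh18 (above) were also highest on that array. Pcdh17 was not kept and was well above background in 1 sample of each genotype. The delta list as a whole did not follow. Of its 26 probes, 2 were at least 2-fold higher and 2 at least 2-fold lower on replicate 1, with a median of 0.05. The part of mesenchymal cells in the Pcdhb21 and Pcdhb22 values was not tested.

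**Figure D4:**
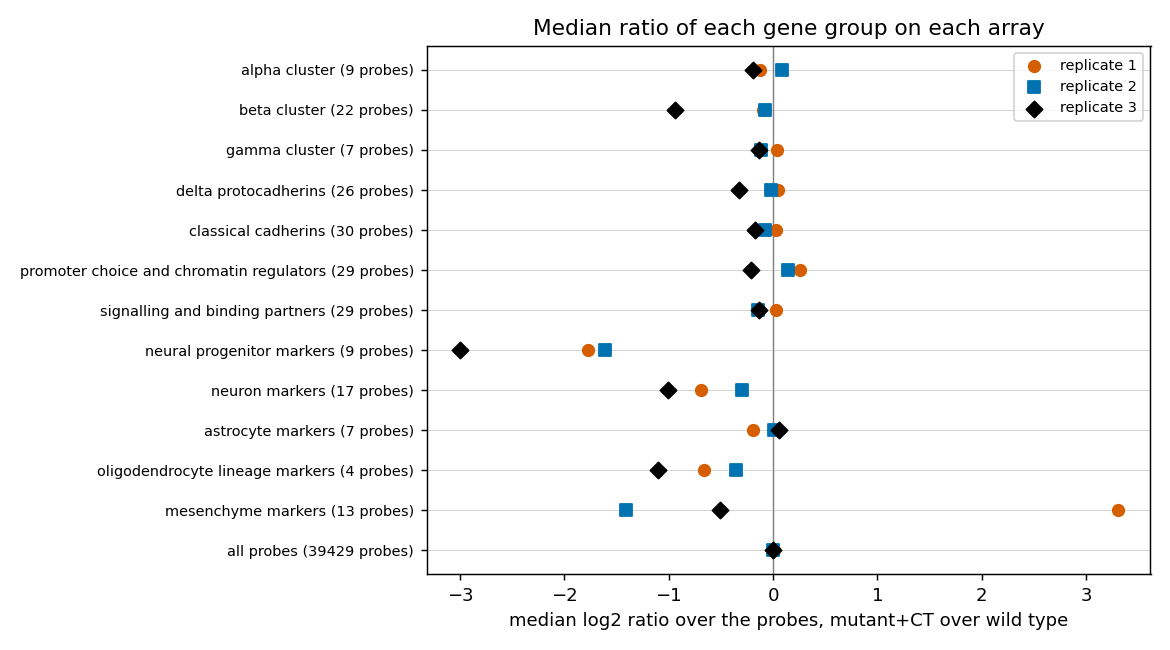
Median log2 ratio of mutant+CT over wild type (x axis) on each replicate for the 3 protocadherin clusters, the related gene lists and marker lists, and all probes (y axis, with the number of probes). Most groups are lowest on replicate 3, among them all protocadherin clusters and both neural lists, and mesenchyme markers are high on replicate 1 alone.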

How the data were processed

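The deposited scanner files hold, per the file headers, the mean intensity of each spot and the median of its local background in each dye, written by Agilent Feature Extraction 10.7.3.1. They also hold processed intensity and a deposited log10 ratio, which served to read which way the table below runs. The deposited table of log2 ratios was made by the authors with limma, per the submitters' processing notes. It runs as mutant+CT over wild type and follows the ratios computed here (column medians of −0.02, 0.02 and −0.01, slopes of 1.03, 0.97 and 0.97), while its exact steps are unknown.

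Ratios were computed in R 4.3.3 with limma 3.58.1 from normexp background correction (offset 50) and loess within arrays. Control spots had weight 0, outlier spots (454, 234 and 507) were set to missing, spots of a probe were averaged, and replicate 2 was turned. Intensities per sample followed Aquantile scaling, and levels of different probes are not compared. A probe was kept when well above background in all wild-type or all mutant+CT samples (26698 of 39429). Log2 ratios were tested against 0 with lmFit and eBayes, with Benjamini-Hochberg adjustment over 26697 probes at 0.05. The fit was tested on simulated data. Where 1 group was never above background, a fold was taken from the bright group's mean. It was set against the higher of the dim probe and the lowest signal well above background. For Pcdhb15 the dim probe was the higher, so that fold equals its mean ratio.

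The members and lists were chosen with earlier results of these data known. Named with values are all kept probes at least 2-fold apart on every array, the 3 with the smallest p per cluster and direction, all C-type and shared probes, for each list the smallest p in each direction and those 2-fold apart on every array, and Ctcf and Smchd1. Other names were chosen after values were seen. Gene symbols are the files', read through RefSeq by accession for transcripts and coverage, and positions are the files' mm9. Alternatives were no background subtraction, processed signals, median centring, Aquantile between arrays, the deposited table, no filter, a filter in both channels, another detection mark, a dye term, a trended and robust prior, and leaving out each array. Quantile normalization of single channels and kept members alone were added after seeing the data.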

Additional observations from a re-analysis of the deposited data

How the results depend on the processing

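Under every setting run, 0 clustered protocadherins passed the adjusted threshold in limma (unadjusted p under 0.05: 0 to 4 probes; smallest adjusted p from 0.0927 to 0.781 over 13 settings), and none was at least 2-fold higher on every array. Without replicate 1, 1 (the alpha probe A_55_P1963533) was at least 2-fold lower on both remaining arrays, and 0 without replicate 2 or 3. With Agilent's processed signals the medians were −0.85 for all members, −0.41 for alpha, −1.58 for beta, −0.49 for gamma and −0.29 for the delta list. The filter in both channels gave −1.26, −0.23, −0.52 and −0.98 for alpha, beta, gamma and delta, and kept members alone gave −0.66, −0.40, −0.25 and −0.98. These filters leave fewer probes. Leaving out an array moved the gamma median between −0.22 and −0.039 and the beta median between −0.55 and −0.09. Aquantile leaves ratios as they are by construction.

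The count over all probes was 36, and 16 with no background subtraction, 744 with processed signals, 152 with the deposited table, 139 with quantile normalization of single channels, 155 with the filter in both channels and 477 with the trended and robust prior. It was 0 with no filter (5327 at an unadjusted p under 0.05) and 0 with a dye term (4366). Leaving out an array gave 0 to 106, with 0 without replicate 2 (5756 unadjusted) or replicate 3 (2446) and 106 without replicate 1. The cause of these moves was not tested. Some means near 0 changed sign. Pcdhb21 was 0.023 with no background subtraction and 0.0015 with median centring, and Pcdha8 A_55_P2106584 was 0.068 with a dye term. Leaving out an array gave −0.97 to 0.87 for Pcdhb21, −1.07 to 0.28 for Pcdhb22, −0.92 to 0.053 for Pcdhb16, −0.28 to 0.12 for Pcdha8 A_55_P2106584, −0.22 to 0.10 for Pcdhga5, −0.13 to 0.49 for Sox2 and −0.057 to 0.18 for Smchd1 A_51_P468599. The test was already paired, since each array pairs the 2 samples of a replicate and its ratios were tested against 0. Signals near background limit most members.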
